A study of Mus musculus with 15 samples.

Results

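The genes described here encode voltage-gated sodium and calcium channels and the sodium leak channel NALCN. They were chosen by symbol from the series-wide expression table (the Scn alpha and beta genes, Cacna1, Cacna2d, Cacnb and Cacng genes, and Nalcn), which gave 40 genes of 23244 entries. There were 9 sodium channel alpha genes and 4 sodium channel beta genes, 10 calcium channel alpha1, 4 alpha2delta, 4 beta and 8 gamma genes, and Nalcn. A gene was tested when at least 3 libraries held at least 1 CPM of the column total, and 34 of the 40 genes passed.

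The tissue was optic epithelium made from the mouse embryonic stem cell line EB5 Rx::GFP in SFEBq culture, in which dissociated stem cells reaggregate and form an eye-field epithelium. The line carries a GFP reporter at the eye field gene Rx on 1 allele (Rx::GFP+/-), and all groups share this line. Day 10 Rx::GFP+ tissue was explanted with forceps and collected untreated. Explants cultured further received either +Wnt conditions (CHIR99201, which inhibits GSK3, with 3 μM in the first 24 h and 1 μM later) or +Fgf conditions (5 ng/mL bFgf with 10% FBS), and were collected at Day 12 and Day 15. The labels name Day 10 tissue neural retina epithelium, +Fgf tissue neural retina and +Wnt tissue retinal pigmented epithelium. Each of the 5 groups held 3 libraries, 15 in all. Day 12 and Day 15 explants without either stimulus are not among the samples analysed here, and FBS is listed for the +Fgf medium alone, so the agents of a medium cannot be told apart. All libraries come from 1 line, and p-values measure the spread between these libraries.

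Voltage-gated sodium channels consist of a large alpha subunit that forms the pore and small beta subunits that set its gating and its place in the membrane. In neurons and muscle they carry the rising phase of the action potential. Voltage-gated calcium channels have an alpha1 pore, with alpha2delta and beta subunits that bring it to the surface, and they couple depolarization to transmitter release, contraction, secretion and transcription. NALCN is a related channel without strong voltage dependence that carries a sodium leak at rest. The gamma genes include subunits of the skeletal muscle calcium channel as well as auxiliary subunits of AMPA receptors. In pigment epithelium, L-type calcium channels are known for their part in the secretion of growth factors, and in retinal ganglion cells sodium channels carry the spikes of the optic nerve.

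Between 12556998 and 16175450 reads per library were recovered from the deposited values, and 1 read was worth between 0.0620 and 0.0764 CPM, so a gene with no read in a library could hold up to 3 reads' worth, at most 0.229 CPM (counting error only). CPM is used below for the value as deposited. The marker genes fitted the labels in part. Mitf, a pigment cell transcription factor, was 183 ± 12.1 CPM in +Wnt at Day 15 and 18.6 ± 0.922 CPM in +Fgf tissue at Day 15 (SD, n = 3). Tyr, the tyrosinase of melanin synthesis, averaged 608 CPM in +Wnt tissue at Day 15. Rax averaged 5.41 CPM there against 311 CPM in +Fgf at Day 15, and Pou4f2, a ganglion cell factor, averaged 1.53 against 82.1 CPM. Rpe65, the isomerase of mature pigment epithelium, had no read in any Day 15 +Wnt library. The summed value of 12 markers of ganglion cells and early neurons, none of them at 0 in any group, was 167 to 251 CPM at Day 10, 370 to 402 in Day 12 +Fgf, 671 to 943 in Day 12 +Wnt, 2345 to 2570 in Day 15 +Fgf and 1501 to 1862 in Day 15 +Wnt. Most neuronal markers rose in both tissues. Past limma's adjusted p of 0.05, 12 of 12 were higher in Day 15 than in Day 12 +Fgf, against 27.2% of all tested genes. In Day 15 against Day 12 +Wnt, 9 of 12 were higher and 2 lower, against 32.5% and 35.5% of all tested genes. The summed value of 7 pigment epithelium markers was 843 to 1184, 263 to 301, 1149 to 1554, 235 to 305 and 5212 to 6745 CPM in the same order of groups. In such whole-tissue libraries, fewer cells of a type and less RNA per cell cannot be told apart, and the part of cell composition in the values below was not tested.

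Channel genes were more often higher than lower in Day 12 +Wnt than in Day 10 tissue, and again in Day 15 than in Day 12 tissue of both kinds. All 34 tested genes differed among the 5 groups (limma F test, largest adjusted p = 0.00061, for Scn1a), where 94.2% of all 13845 tested genes did. A gene is called higher or lower where limma's adjusted p was under 0.05, and a log2 change is a difference of mean log2(value + 0.3), which understates the change of low genes. Between Day 10 and Day 12 +Fgf, 15 of 34 genes were called (9 higher, 6 lower), or 44.1% against 55.7% of all tested genes (27.9% higher, 27.8% lower). Between Day 10 and Day 12 +Wnt, 28 were called (20 higher, 8 lower), or 82.4% against 60.2% of all genes, of which 30.6% were higher and 29.6% lower. From Day 12 to Day 15, 23 were called in +Fgf (18 higher, 5 lower) against 57.1% of all genes, and 28 in +Wnt (24 higher, 4 lower) against 68% of all genes. Over these days 27.2% of all genes were higher and 29.9% lower in +Fgf, and 32.5% higher and 35.5% lower in +Wnt.

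Set against each other, +Wnt tissue held the higher level for most called channel genes at both days. At Day 12, 23 of 34 genes were called, 17 of them higher in +Wnt and 6 in +Fgf, against 51.5% of all genes (25.2% higher in +Wnt, 26.3% in +Fgf). At Day 15, 25 were called, 20 higher in +Wnt and 5 in +Fgf, against 68.7% of all genes (30.6% higher in +Wnt, 38% in +Fgf). The median log2 difference of +Fgf minus +Wnt was -0.43 over the 34 genes at Day 12 and -0.58 at Day 15, and 0.00 and 0.05 over all genes. The RNA integrity number, which the study lists per library, was on average lowest in Day 15 +Fgf tissue. With it as a covariate, the count at Day 15 was 12 in place of 25 (3 higher in +Fgf, 9 in +Wnt), and the count from Day 12 to Day 15 in +Fgf was 15 in place of 23 (14 higher, 1 lower).

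Changes of at least 1 on the log2 scale over time were mostly to higher levels, except from Day 10 to Day 12 +Fgf, where most were to lower levels. From Day 10 to Day 12, 3 channel genes were higher and 6 lower by this size in +Fgf (5.71% and 3.63% of all genes), and 11 higher and 3 lower in +Wnt (6.56% and 3.89%). From Day 12 to Day 15, 11 were higher and 2 lower in +Fgf (8.44% and 3.84% of all genes), and 15 higher and 4 lower in +Wnt (13.4% and 3.39%). Between the tissues, 2 were higher in +Fgf and 11 in +Wnt at Day 12 (6.15% and 6.53% of all genes), and 1 and 11 at Day 15 (6.93% and 12.8%). Groups whose 3 libraries did not overlap were found for 20 channel genes from Day 10 to Day 12 +Fgf (61% of all genes), 28 to Day 12 +Wnt (64.3%), 21 from Day 12 to Day 15 in +Fgf (63.7%) and 30 in +Wnt (72.8%). Between the tissues, 27 did not overlap at Day 12 (60.4% of all genes) and 27 at Day 15 (73.1%).

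**Figure D1:**
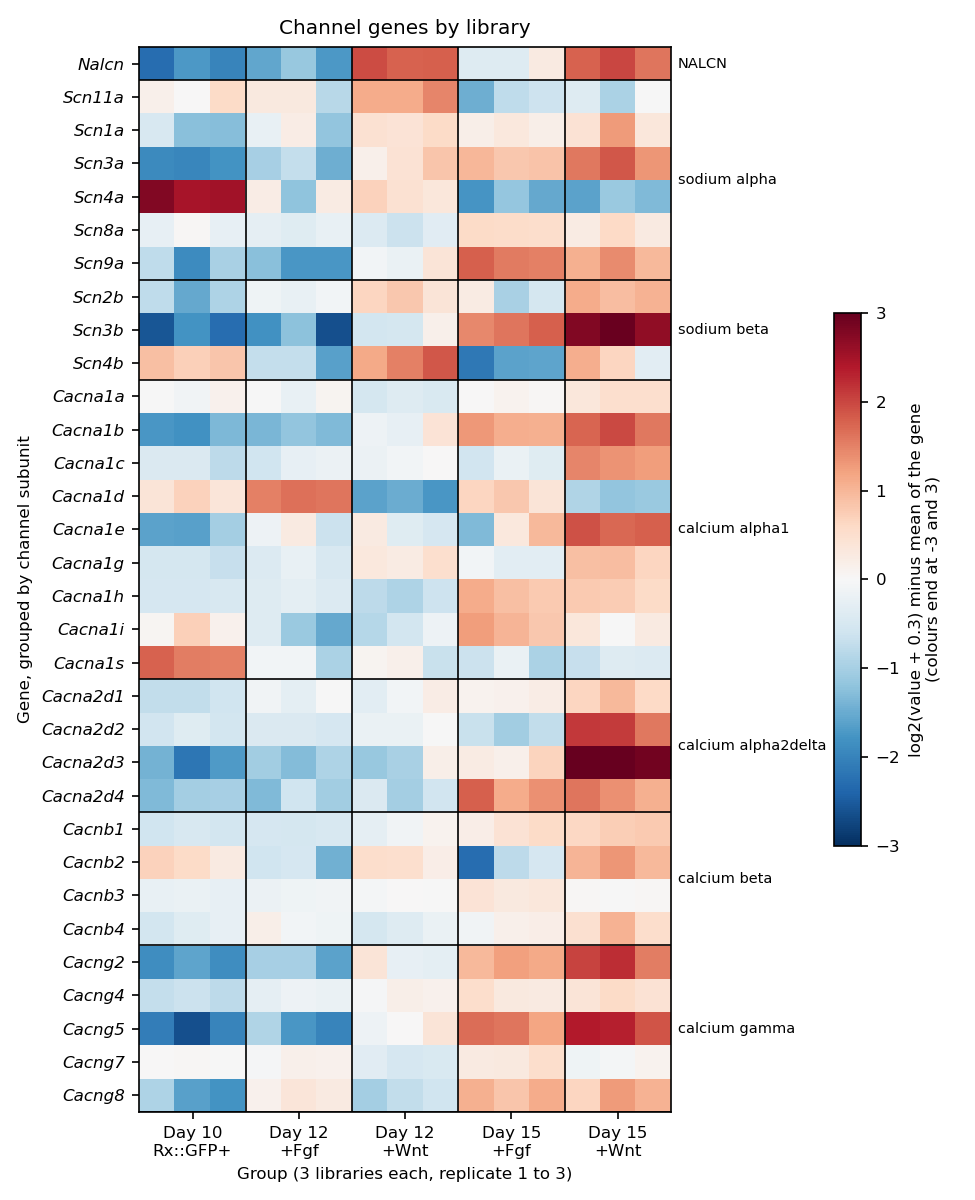
Heat map of 32 of the 34 tested channel genes (rows, grouped by subunit) in the 15 libraries (columns, 3 per group). Colour is log2(value + 0.3) minus the mean of the gene over all libraries, and reds gather in the Day 15 +Wnt columns, where, over all 34 genes, 24 were higher than in Day 12 +Wnt and 20 were higher than in Day 15 +Fgf.

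Among the sodium channel alpha genes, Scn4a fell after Day 10, while Scn3a rose. Scn4a, the skeletal muscle channel Nav1.4, was 8.45, 6.89 and 7.11 CPM at Day 10. It was 1.20, 0.255 and 1.21 CPM in +Fgf at Day 12 and 1.76, 1.46 and 1.32 CPM in +Wnt at Day 12, and at most 0.298 CPM in every Day 15 library. No later library reached a Day 10 value. Scn4a fell 8.4-fold to Day 12 +Fgf (log2 change -2.84 ± 0.32 SE, adjusted p = 1.8e-06) and 4.94-fold to Day 12 +Wnt (-2.10 ± 0.32, adjusted p = 3.3e-05). Cacna1s, the pore of the skeletal muscle calcium channel, went the same way at a lower level, with 18 to 25 reads per library at Day 10 and 0 to 5 in all other libraries. It was lower in Day 12 tissue of both kinds than at Day 10 (log2 changes -1.99 and -1.76). Cacna1s passed the filter only through its Day 10 libraries, so its tests against Day 10 are no separate support for a fall. The summed value of 10 muscle markers was 7.09 to 12.3 CPM at Day 10, 16.4 to 21.0 in Day 12 +Fgf and 2.76 to 4.72 in the other groups. Of the 10, 2 passed the filter. Myf5, a defining muscle factor, had no read in any library, and every other marker of the 10 had reads at Day 10. The part of muscle cells in these values was not tested.

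Scn3a, the embryonic neuronal channel Nav1.3, took the opposite course. It was 2.25, 2.14 and 2.45 CPM at Day 10, 4.50, 5.48 and 3.13 CPM in +Fgf at Day 12 and 10.3, 12.6 and 16.5 CPM in +Wnt at Day 12. At Day 15 it was 18.8, 16.5 and 16.8 CPM in +Fgf and 28.1, 34.5 and 23.4 CPM in +Wnt. The libraries did not overlap between Day 10 and Day 12 of either tissue, between Day 12 and Day 15 within a tissue, or between the tissues at either day. The call between the tissues at Day 15 was lost with the integrity number as a covariate (log2 difference -0.64, limma adjusted p = 0.17). Scn3a rose 5.77-fold from Day 10 to Day 12 +Wnt (log2 change 2.36 ± 0.19 SE, adjusted p = 3.1e-08), 3.97-fold from Day 12 to Day 15 in +Fgf (1.95 ± 0.19, adjusted p = 2.4e-07) and 2.18-fold over the same days in +Wnt (1.12 ± 0.19, adjusted p = 6.3e-05). At Day 12 it was 3.01-fold higher in +Wnt than in +Fgf (log2 difference -1.53 ± 0.19, adjusted p = 4.1e-06). Scn9a, the channel Nav1.7 of sensory and sympathetic neurons, was lower in +Fgf than in +Wnt at Day 12, and did not pass the test at Day 15. It was 1.20, 0.765 and 0.767 CPM in +Fgf at Day 12 against 3.08, 2.85 and 4.37 CPM in +Wnt at Day 12, and 12.1, 10.3 and 9.96 CPM in +Fgf at Day 15 against 7.26, 9.25 and 6.73 CPM in +Wnt at Day 15. From Day 10 to Day 12 +Wnt it rose 2.55-fold (log2 change 1.24 ± 0.26, adjusted p = 0.00055). The Day 12 difference was -1.62 ± 0.26 (adjusted p = 5.1e-05) and the Day 15 difference 0.47 ± 0.26 (log2 of +Fgf minus +Wnt, adjusted p = 0.11), and the rise of 11.8-fold in +Fgf (log2 change 3.21 ± 0.26, adjusted p = 2.3e-08) exceeded the 2.26-fold rise in +Wnt (adjusted p = 0.00097, lost with quantile scaling) by 2.09 ± 0.36 on the log2 scale (interaction, adjusted p = 0.00016). A transcribed entry of the opposite strand, Gm13629, overlaps exons of Scn9a, and the strand setting of the counting is not given in the sources used here.

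Of the other alpha genes described, Scn8a, the widely expressed neuronal channel Nav1.6, kept a narrow range. Its group means lay between 8.16 and 10.2 CPM up to Day 12, and it was higher at Day 15 in both tissues by 0.84 on the log2 scale (16.8 CPM in +Fgf, 14.9 CPM in +Wnt, adjusted p = 1.2e-05 and 7.2e-06). Scn11a, a sensory neuron channel, was highest in Day 12 +Wnt (2.83, 2.78 and 3.64 CPM) and fell 3.89-fold to Day 15 +Wnt (log2 change -1.67 ± 0.33 SE, adjusted p = 0.00024). It was also 2.70-fold lower in Day 12 +Fgf than in Day 12 +Wnt (log2 difference -1.31 ± 0.33, adjusted p = 0.0031). Scn1a, the Nav1.1 of inhibitory neurons, had group means of 0.649 to 2.79 CPM. Scn10a, a sensory neuron channel, had at most 1 read in a library and Scn7a, an atypical channel without strong voltage gating, at most 10, and neither was tested. The brain channel Nav1.2 is listed under the symbol Scn2a1, outside the rule, and was 0.773 CPM at Day 10, 1.99 and 3.69 CPM in +Fgf and +Wnt at Day 12, and 5.51 and 14.6 CPM in +Fgf and +Wnt at Day 15.

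Per kb of the longest RefSeq transcript, Scn3a made up a growing share of the alpha genes. Its share of their summed CPM per kb went from 3.35% ± 0.0894 at Day 10 to 15.1% ± 4.17 in Day 12 +Fgf and 18% ± 3.43 in Day 12 +Wnt, and to 36.1% ± 2.12 in Day 15 +Fgf and 47.5% ± 4.01 in Day 15 +Wnt (SD, n = 3). Scn3a itself averaged 0.266, 0.511, 1.54, 2.03 and 3.35 CPM per kb in the same order. Its share thus also moved with the levels of the other alpha genes, above all to Day 12 +Fgf.

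The sodium channel beta genes were dominated by Scn3b at Day 15. Scn3b, which encodes a beta subunit of embryonic and adult neurons, was 0.886, 1.74 and 1.15 CPM at Day 10, 1.71, 2.68 and 0.831 CPM in +Fgf at Day 12 and 4.47, 4.59 and 7.48 CPM in +Wnt at Day 12. It was 18.9, 20.9 and 24.0 CPM in +Fgf at Day 15 and 48.0, 54.7 and 44.4 CPM in +Wnt at Day 15. Only the Day 10 and Day 12 +Fgf libraries overlapped among these groups. At Day 12, Scn3b in +Wnt was 4.39-fold its Day 10 level (log2 change 1.90 ± 0.28 SE, adjusted p = 2.4e-05) and 3.17-fold its level in +Fgf (log2 difference -1.58 ± 0.28, adjusted p = 0.00017). The Scn3b rise from Day 12 to Day 15 was 12.2-fold in +Fgf (log2 change 3.50 ± 0.28 SE, adjusted p = 2.6e-08) and 8.89-fold in +Wnt (3.12 ± 0.28, adjusted p = 5.2e-08). The level in Day 15 +Wnt was 2.31-fold that in Day 15 +Fgf (log2 difference -1.19 ± 0.28, adjusted p = 0.0012), which was lost with the integrity number as a covariate (log2 difference -0.50, adjusted p = 0.45). Scn3b made up 85.1% ± 5.37 of the summed CPM per kb of the beta genes in Day 15 +Fgf and 78.5% ± 2.53 in Day 15 +Wnt (SD, n = 3).

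Scn2b and Scn4b, further beta subunits of neurons, were low, and called higher in +Wnt than in +Fgf at Day 15. Scn2b was 6.51, 5.74 and 6.24 CPM in +Wnt at Day 15 against 3.47, 1.30 and 1.91 CPM in +Fgf at Day 15 (2.77-fold, log2 difference -1.45 ± 0.26 SE, adjusted p = 9.5e-05), and it had risen 3.66-fold from Day 10 to Day 12 +Wnt (1.68 ± 0.26, adjusted p = 3.2e-05). Scn4b was 2.54, 1.79 and 0.772 CPM in +Wnt at Day 15, and 0 to 2 reads were found in each Day 15 +Fgf library. At Day 12, Scn4b was 2.64, 3.48 and 4.50 CPM in +Wnt against 0.507, 0.510 and 0.128 CPM in +Fgf (9.28-fold, log2 difference -2.53 ± 0.34, adjusted p = 8.8e-06). Its fall of 2.08-fold from Day 12 to Day 15 +Wnt (log2 change -1.02 ± 0.34, adjusted p = 0.013) was lost without Day 12 +Wnt replicate 3 (-0.85, adjusted p = 0.062) or Day 15 +Wnt replicate 3 (-0.63, adjusted p = 0.099).

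Of the 34 tested channel genes, Nalcn had the largest log2 difference between +Fgf and +Wnt tissue at Day 12. Nalcn (chr14:123276634-123627144, minus strand, GRCm38) was 1.5, 2.34 and 1.91 CPM at Day 10 and 2.66, 3.70 and 2.36 CPM in +Fgf at Day 12, but 33.6, 29.4 and 29.9 CPM in +Wnt at Day 12. At Day 15 it was 6.42, 6.39 and 10.2 CPM in +Fgf and 29.5, 34.5 and 26.4 CPM in +Wnt. Every +Wnt library thus lay above every other library, and the +Wnt libraries of both days overlapped. Nalcn rose 16.2-fold from Day 10 to Day 12 +Wnt (log2 change 3.83 ± 0.19 SE, adjusted p = 2.0e-10) and did not pass the test between Day 12 and Day 15 +Wnt (-0.05 ± 0.19, adjusted p = 0.85). Between Day 12 and Day 15 +Fgf it rose 2.63-fold (1.30 ± 0.19, adjusted p = 2.3e-05). The +Wnt level was 10.7-fold that of +Fgf at Day 12 (log2 difference -3.31 ± 0.19, adjusted p = 4.2e-10) and 3.94-fold at Day 15 (-1.96 ± 0.19, adjusted p = 1.1e-07), so the difference narrowed by 1.35 ± 0.27 on the log2 scale (interaction, adjusted p = 0.00065). Of the 12 ganglion cell and early neuron markers, 8 were called higher in +Wnt and 3 in +Fgf at Day 12 (25.2% and 26.3% of all genes). At Day 15, 1 was called higher in +Wnt and 9 in +Fgf (30.6% and 38% of all genes). The part of neurons in the Nalcn values was not tested.

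The genes of accessory proteins of the NALCN complex followed Nalcn in part. Unc79 and Fam155a averaged higher in +Wnt than in +Fgf at both days, as Nalcn did. Unc80 averaged slightly higher in +Wnt at Day 12, where the libraries of the tissues overlapped. At Day 15 every Unc80 value in +Wnt (2.60 to 3.47 CPM) was below those in +Fgf (5.44 to 6.87 CPM), the reverse of Nalcn. All of these accessory genes differed from Nalcn in their course after Day 12 in +Wnt. Unc79, a scaffold of the complex, was 1.57, 2.48, 6.46, 9.2 and 15.4 CPM on average at Day 10, in +Fgf and +Wnt at Day 12, and in +Fgf and +Wnt at Day 15, and rose between Day 12 and Day 15 in both tissues (adjusted p = 4.1e-07 and 1.4e-05). Unc80, its partner, was 0.856, 1.12, 1.37, 6.39 and 3.17 CPM in the same order. It rose over these days in both tissues (log2 changes 2.23 ± 0.23 SE in +Fgf and 1.07 ± 0.23 in +Wnt, adjusted p = 3.8e-07 and 0.00053). Fam155a, which codes for a further subunit of the complex, was 0.741, 1.99, 4.48, 5.82 and 21.4 CPM. It rose between Day 12 and Day 15 in both tissues too (adjusted p = 1.6e-05 in +Fgf and 6.4e-08 in +Wnt). Of these 4 genes, Nalcn alone did not pass the test between Day 12 and Day 15 +Wnt.

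**Figure D2:**
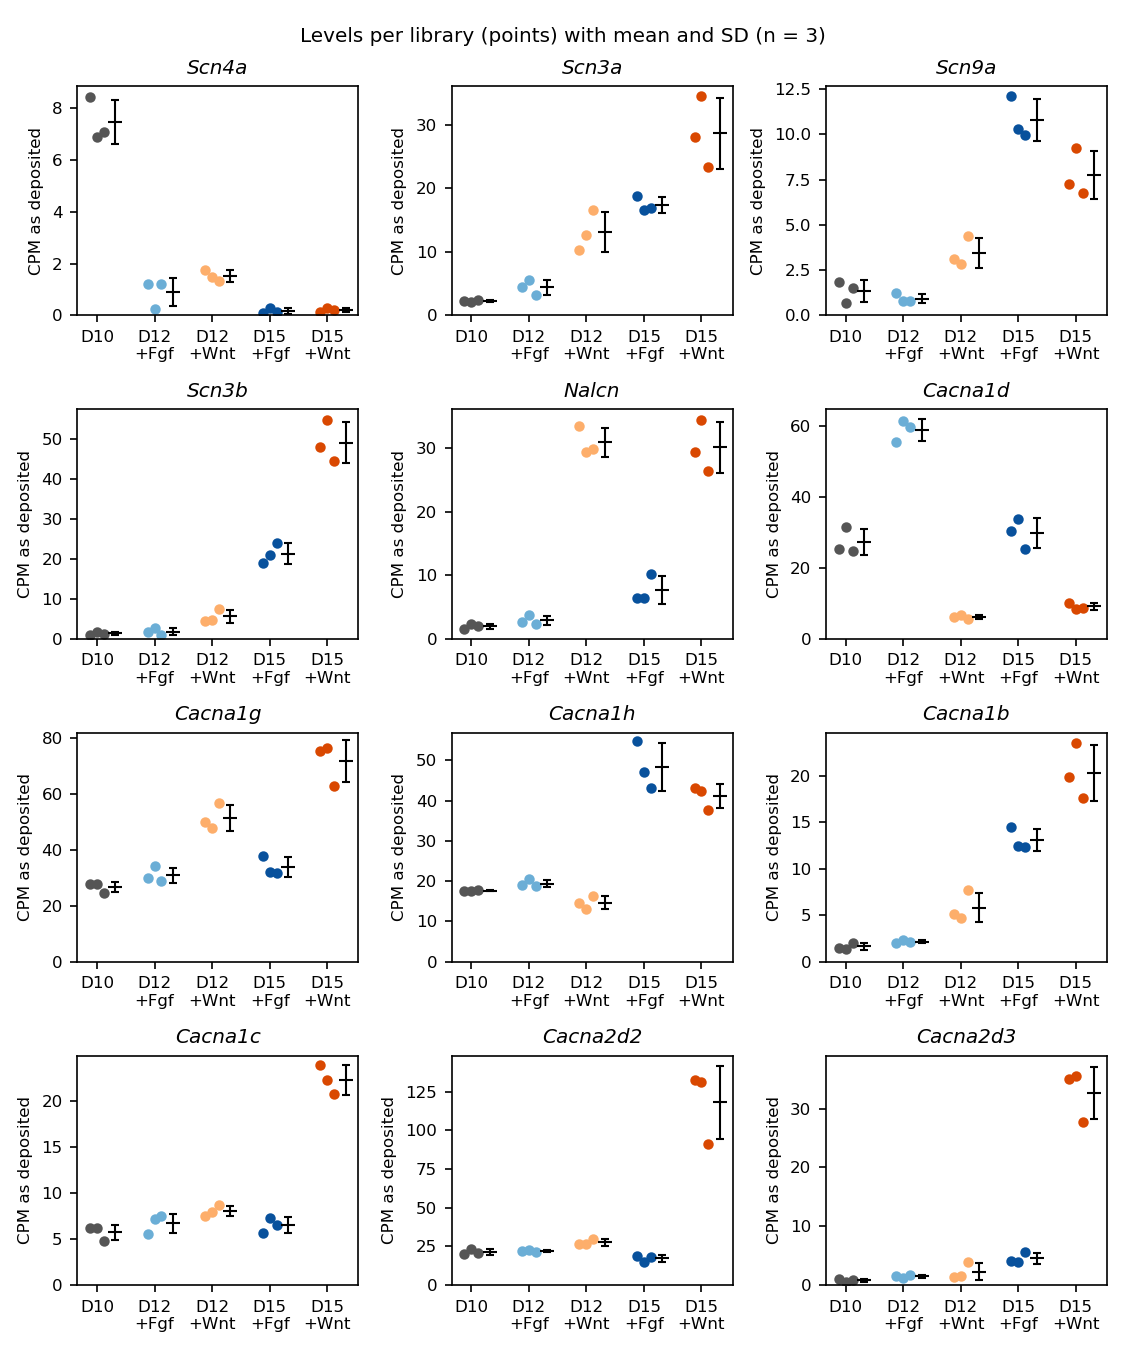
Deposited CPM of 12 channel genes in each library (points, 3 per group) with the group mean and SD (n = 3, black) on linear axes that start at 0. Nalcn lies between 26.4 and 34.5 CPM in all 6 +Wnt libraries and at most at 10.2 CPM elsewhere, and Cacna1d shows the opposite order of the tissues.

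The sequence around the annotated start of Nalcn is shown because this gene and Cacna1d separate the tissues most strongly at Day 12. The window holds the 250 bases before and the first 50 bases of the transcript (RefSeq, GRCm38.p6, chr14:123627095-123627394, minus strand, 5′ to 3′). Capitals here and below mark matches to CANNTG, the E-box letters that bHLH factors can bind, which read the same on both strands. CANNTG was found in 72.3% of the 32851 promoter windows of this length. The narrower forms CACGTG and CATGTG, searched on both strands, were found in 7.15% and 14.2% of all windows and in none printed here.

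Nalcn: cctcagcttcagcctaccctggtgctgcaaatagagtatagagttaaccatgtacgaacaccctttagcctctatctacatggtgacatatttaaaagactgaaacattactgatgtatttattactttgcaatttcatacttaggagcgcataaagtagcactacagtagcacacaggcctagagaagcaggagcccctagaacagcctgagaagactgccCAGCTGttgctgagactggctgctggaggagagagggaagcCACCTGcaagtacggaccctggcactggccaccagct

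The window holds 2 such matches and 3 CpG dinucleotides, against a median of 7 CpG over all windows. CTTTGAT and CTTTGTT, letters of the Tcf/Lef element searched on both strands, occurred in 3.73% and 5.85% of all windows and in none of the windows printed here. Of the windows found for 30 of the 40 genes, 1 of Cacnb3 and 1 of Cacnb4 held CTTTGTT and none held CTTTGAT.

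Of the L-type alpha1 genes, Cacna1d was higher in +Fgf tissue at both days and Cacna1c was higher in +Wnt tissue at Day 15. Cacna1d, which encodes the L-type pore Cav1.3 of neurons, endocrine and pigment cells (chr14:30039939-30491455, minus strand), was 25.3, 31.4 and 24.8 CPM at Day 10. It was 55.6, 61.6 and 59.7 CPM in +Fgf at Day 12 against 6.16, 6.68 and 5.56 CPM in +Wnt at Day 12, and 30.5, 33.9 and 25.4 CPM in +Fgf at Day 15 against 10.2, 8.28 and 8.77 CPM in +Wnt at Day 15. The tissues thus moved to either side of the Day 10 libraries by Day 12. Cacna1d rose 2.17-fold from Day 10 to Day 12 +Fgf (log2 change 1.12 ± 0.12 SE, adjusted p = 7.9e-07) and fell 4.43-fold to Day 12 +Wnt (-2.09 ± 0.12, adjusted p = 7.0e-10). The +Fgf level was 9.62-fold that of +Wnt at Day 12 (log2 difference 3.21 ± 0.12, adjusted p = 2.0e-12) and 3.30-fold at Day 15 (1.69 ± 0.12, adjusted p = 1.7e-09). Exons of Chdh, on the opposite strand, overlap Cacna1d, and reads of these genes cannot be told apart if strand was not used.

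The annotated starts of Cacna1d are shown for comparison with Nalcn. The first window (chr14:30353437-30353736, minus strand) is at an inner start and the second (chr14:30491107-30491406, minus strand) at the upstream start in RefSeq. Both lie within the gene bounds given above, which are those of GENCODE.

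Cacna1d inner start: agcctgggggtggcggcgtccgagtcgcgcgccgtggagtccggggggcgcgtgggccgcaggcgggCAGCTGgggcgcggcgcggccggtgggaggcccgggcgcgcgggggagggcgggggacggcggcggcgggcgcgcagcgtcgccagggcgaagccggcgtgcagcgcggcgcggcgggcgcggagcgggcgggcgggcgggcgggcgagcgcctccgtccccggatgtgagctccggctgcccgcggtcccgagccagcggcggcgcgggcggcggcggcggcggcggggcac
Cacna1d upstream start: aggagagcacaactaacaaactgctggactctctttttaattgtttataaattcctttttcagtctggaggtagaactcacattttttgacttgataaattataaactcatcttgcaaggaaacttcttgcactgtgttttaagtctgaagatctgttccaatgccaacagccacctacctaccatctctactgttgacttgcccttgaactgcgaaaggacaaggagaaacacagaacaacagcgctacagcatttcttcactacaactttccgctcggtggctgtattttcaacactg

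The inner window holds 63 CpG, 1 CANNTG match and no TATAAA. The upstream window holds 4 CpG, no CANNTG and 3 matches to TATAAA (either strand), letters found in 13.6% of all windows. The deposited values are sums per gene and do not say which start was used.

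Cacna1c, the L-type pore Cav1.2 of heart, smooth muscle and brain, stood at 4.81 to 8.67 CPM in all libraries except Day 15 +Wnt, where it was 24.0, 22.3 and 20.8 CPM. It rose 2.77-fold from Day 12 to Day 15 +Wnt (log2 change 1.44 ± 0.14 SE, adjusted p = 1.2e-07), and its change in +Fgf was -0.03 ± 0.14 (adjusted p = 0.86). The difference of these changes, +Fgf minus +Wnt, was -1.47 ± 0.20 (interaction, adjusted p = 1.4e-05), and Cacna1c was 3.42-fold higher in +Wnt than in +Fgf at Day 15 (log2 difference -1.73 ± 0.14, adjusted p = 1.0e-08). In Day 15 +Wnt tissue Cacna1d and Cacna1c were thus in the reverse order to Day 15 +Fgf, with Cacna1d at 9.07 and Cacna1c at 22.4 CPM on average against 29.9 and 6.53 CPM. Per kb, Cacna1d took 4.82% ± 0.547 and Cacna1c 7.83% ± 0.330 of the alpha1 sum in Day 15 +Wnt, and 19.5% ± 2.09 and 2.82% ± 0.480 in Day 15 +Fgf (SD, n = 3). Cacna1f, the L-type pore of photoreceptor terminals, had at most 3 reads in a library.

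Among the low-voltage T-type genes, Cacna1g was higher in +Wnt tissue and Cacna1h rose with time in both tissues. Cacna1g (Cav3.1) was 27.6, 27.6 and 24.5 CPM at Day 10 and 29.9, 34.0 and 28.7 CPM in +Fgf at Day 12, but 49.8, 47.7 and 56.7 CPM in +Wnt at Day 12. At Day 15 it was 37.8, 32 and 31.7 CPM in +Fgf and 75.4, 76.5 and 62.9 CPM in +Wnt. The +Wnt libraries lay above all others at both days, by 1.67-fold at Day 12 (adjusted p = 7.2e-06) and 2.12-fold at Day 15 (log2 difference -1.07 ± 0.10 SE, adjusted p = 3.7e-08). Cacna1g made up 55.0% ± 0.791 of the alpha1 sum per kb in Day 12 +Wnt (SD, n = 3).

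Cacna1h (Cav3.2) was 17.6, 17.5 and 17.8 CPM at Day 10, 19.0, 20.5 and 18.8 CPM in +Fgf at Day 12 and 14.5, 13.1 and 16.3 CPM in +Wnt at Day 12, and then 54.8, 47.0 and 43.2 CPM in +Fgf at Day 15 and 43.1, 42.4 and 37.7 CPM in +Wnt at Day 15. Its rise of 2.49-fold in +Fgf (log2 change 1.30 ± 0.09 SE, adjusted p = 7.7e-09) and 2.81-fold in +Wnt (1.47 ± 0.09, adjusted p = 8.0e-10) did not differ past the threshold (interaction -0.18 ± 0.13, adjusted p = 0.29). Cacna1i (Cav3.3) fell 2.77-fold from Day 10 to Day 12 +Fgf (log2 change -1.31 ± 0.27, adjusted p = 0.00062) and then rose 4.67-fold to Day 15 +Fgf (2.03 ± 0.27, adjusted p = 7.5e-06). Its values were 2.52, 4.14 and 2.67 CPM at Day 10, 1.77, 0.956 and 0.639 CPM in +Fgf at Day 12, and 6.12, 5.15 and 4.45 CPM in +Fgf at Day 15. Exons of Tpsg1 overlap Cacna1h on the opposite strand.

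Of the presynaptic high-voltage genes, Cacna1b rose from Day 12 to Day 15 in both tissues, while Cacna1a and Cacna1e were called over these days in +Wnt alone. Cacna1b, the N-type pore Cav2.2, was 1.5, 1.4 and 2.06 CPM at Day 10, 2.03, 2.36 and 2.11 CPM in +Fgf at Day 12 and 5.10, 4.73 and 7.68 CPM in +Wnt at Day 12. It was 14.5, 12.4 and 12.4 CPM in +Fgf at Day 15 and 19.9, 23.6 and 17.6 CPM in +Wnt at Day 15. At Day 12, Cacna1b in +Wnt was 3.53-fold its Day 10 level (log2 change 1.63 ± 0.18 SE, adjusted p = 8.8e-07) and 2.70-fold its level in +Fgf (log2 difference -1.29 ± 0.18, adjusted p = 1.3e-05). Both tissues gained Cacna1b from Day 12 to Day 15, 6.04-fold in +Fgf (log2 change 2.44 ± 0.18 SE, adjusted p = 8.7e-09) and 3.49-fold in +Wnt (1.77 ± 0.18, adjusted p = 1.9e-07). Cacna1a, the P/Q-type pore Cav2.1, moved less, with 8.72 CPM in +Wnt at Day 12 and 11.7 to 16.7 CPM in the other group means. Cacna1e, the R-type pore Cav2.3, rose 4.29-fold in +Wnt, from 3.08, 1.88 and 1.65 CPM at Day 12 to 10.1, 8.87 and 9.4 CPM at Day 15 (log2 change 2.00 ± 0.42, adjusted p = 0.00044). In Day 15 +Fgf it was spread over 0.811, 3.16 and 5.16 CPM, and its 3.11-fold difference from Day 15 +Wnt (log2 difference -1.82 ± 0.42, adjusted p = 0.00097) was lost with the integrity number as a covariate (log2 difference -0.71, adjusted p = 0.46).

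Cacna2d3 and Cacna2d2, of the alpha2delta genes, had the largest log2 differences between the tissues at Day 15 among the 34 tested genes. These subunits bring calcium channels to the surface, and Cacna2d1 and Cacna2d2 bind the gabapentinoid drugs. Cacna2d2 (chr9:107399612-107529343, plus strand) was 20.2, 23.5 and 20.5 CPM at Day 10, 22.2, 22.5 and 21.2 CPM in +Fgf at Day 12, 26.3, 26.2 and 29.9 CPM in +Wnt at Day 12, and 19.0, 14.6 and 18.2 CPM in +Fgf at Day 15. In Day 15 +Wnt it was 132, 131 and 91.0 CPM. Cacna2d2 rose 4.30-fold from Day 12 to Day 15 +Wnt (log2 change 2.07 ± 0.13 SE, adjusted p = 4.9e-10), and was 6.86-fold higher there than in Day 15 +Fgf (log2 difference -2.75 ± 0.13, adjusted p = 8.9e-12).

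Cacna2d3 (chr14:28904943-29721864, minus strand) was 1.09, 0.535 and 0.841 CPM at Day 10, 1.52, 1.21 and 1.66 CPM in +Fgf at Day 12 and 1.38, 1.60 and 3.91 CPM in +Wnt at Day 12. It was 4.13, 3.85 and 5.65 CPM in +Fgf at Day 15 and 35.0, 35.6 and 27.6 CPM in +Wnt at Day 15. The lowest Day 15 +Wnt library was thus above every other library for Cacna2d2 and Cacna2d3 alike. Cacna2d3 rose 14.3-fold in +Wnt (log2 change 3.79 ± 0.28 SE, adjusted p = 5.6e-09) and 3.10-fold in +Fgf (1.45 ± 0.28, adjusted p = 0.00037, and 0.060 with the integrity number as a covariate). At Day 15 it was 7.21-fold higher in +Wnt than in +Fgf (log2 difference -2.78 ± 0.28, adjusted p = 2.0e-07). The difference of these changes was -2.34 ± 0.40 for Cacna2d3 and -2.43 ± 0.18 for Cacna2d2 (interaction, +Fgf minus +Wnt, adjusted p = 0.00016 and 2.1e-08).

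The windows at the starts of Cacna2d2 (chr9:107399630-107399929, plus strand) and Cacna2d3 (chr14:29721815-29722114, minus strand) are shown because these genes rose together in +Wnt tissue after Day 12.

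Cacna2d2: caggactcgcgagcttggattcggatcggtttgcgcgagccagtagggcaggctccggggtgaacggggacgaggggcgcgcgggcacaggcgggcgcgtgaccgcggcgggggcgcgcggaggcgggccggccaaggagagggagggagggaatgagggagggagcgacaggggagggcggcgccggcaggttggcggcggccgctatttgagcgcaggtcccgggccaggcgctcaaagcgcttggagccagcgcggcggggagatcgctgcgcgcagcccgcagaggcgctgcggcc
Cacna2d3: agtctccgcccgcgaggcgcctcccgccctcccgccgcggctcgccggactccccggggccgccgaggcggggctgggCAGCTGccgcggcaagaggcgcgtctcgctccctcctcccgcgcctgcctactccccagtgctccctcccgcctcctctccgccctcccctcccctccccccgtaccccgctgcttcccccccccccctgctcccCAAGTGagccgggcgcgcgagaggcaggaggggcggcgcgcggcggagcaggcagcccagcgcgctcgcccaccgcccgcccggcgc

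They hold 43 and 41 CpG, above the 95th percentile of all windows (37), with no CANNTG match in Cacna2d2 and 2 in Cacna2d3. Such CpG counts are not particular to this pair, as the Cacna2d1 window holds 42 and the inner Cacna1d window 63. Exons of Gm17141 overlap Cacna2d2 on the opposite strand.

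The remaining alpha2delta genes differed less between the tissues. Cacna2d1 was highest in Day 15 +Wnt (85.2, 106 and 82.6 CPM) and 33.2, 49.0, 52.7 and 60.3 CPM on average at Day 10, in +Fgf and +Wnt at Day 12, and in +Fgf at Day 15. Cacna2d4, known from photoreceptors, had at most 4 reads per library up to Day 12, and 1.74 and 1.63 CPM on average in Day 15 +Fgf and +Wnt. The sum of the alpha2delta genes was 8.46 ± 0.269 CPM per kb at Day 10 and 42.0 ± 6.5 in Day 15 +Wnt, where Cacna2d2 made up 48.3% ± 3.14 and Cacna2d3 21.2% ± 0.605 of it (SD, n = 3). In Day 15 +Fgf the sum was 12.7 ± 0.816 CPM per kb and Cacna2d1 made up 64.8% ± 3.10.

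**Figure D3:**
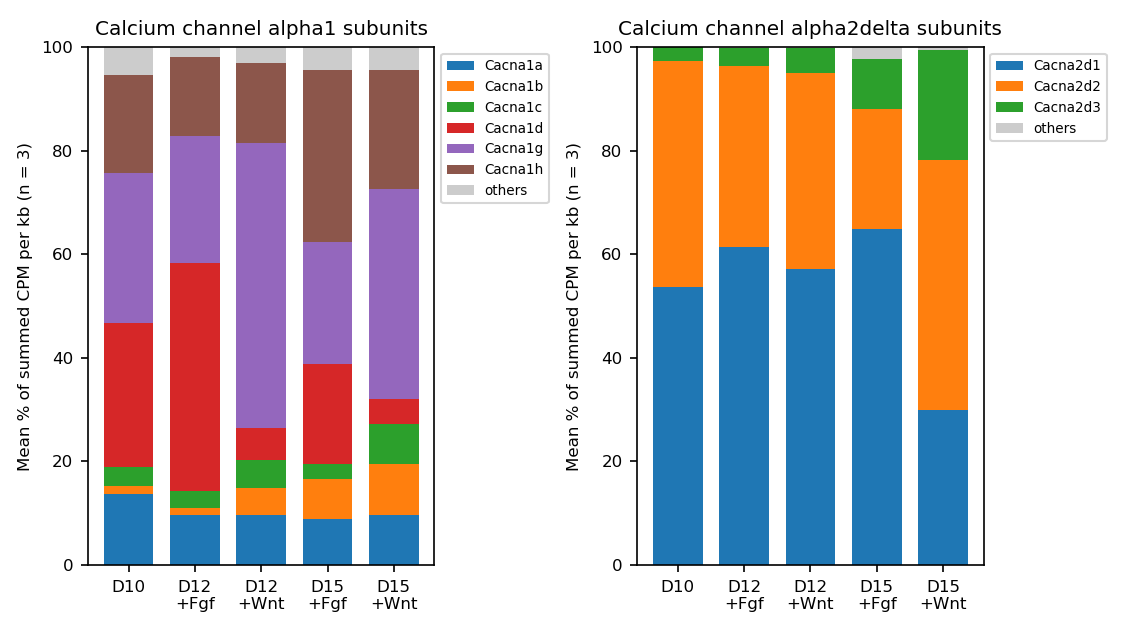
Stacked bars of the mean share (%) of summed CPM per kb (n = 3) that each gene takes among calcium channel alpha1 genes (left) and alpha2delta genes (right), for the 5 groups on the horizontal axis; genes that stay under 5% in all groups are joined as others. Cacna1d peaks at 44.0% in Day 12 +Fgf, and Cacna2d2 and Cacna2d3 take 48.3% and 21.2% in Day 15 +Wnt.

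The calcium channel beta genes were led by Cacnb3 in every group. Cacnb3 had between 76.3% and 87.8% of the summed CPM per kb, and its group means lay between 57.7 and 85.6 CPM. Cacnb2, the main cardiac beta subunit, separated the tissues, with 6.27, 7.83 and 6.03 CPM in +Wnt at Day 15 against 0.369, 1.58 and 1.98 CPM in +Fgf at Day 15 (5.13-fold, log2 difference -2.29 ± 0.35 SE, adjusted p = 1.9e-05, and 0.056 with the integrity number as a covariate). At Day 12 it was 4.40, 4.32 and 3.44 CPM in +Wnt and 1.84, 1.98 and 0.894 CPM in +Fgf (2.58-fold, log2 difference -1.27 ± 0.35, adjusted p = 0.0060). It fell 2.79-fold from Day 10 to Day 12 +Fgf (log2 change -1.37 ± 0.35, adjusted p = 0.0034), and Day 10 and Day 12 +Wnt libraries overlapped. Cacnb4, a beta subunit of brain, rose 2.18-fold from Day 12 to Day 15 +Wnt (log2 change 1.05 ± 0.17, adjusted p = 4.0e-05), from 3.15, 3.48 and 4.04 CPM to 6.58, 9.92 and 6.80 CPM. Cacnb1, the subunit of skeletal muscle and brain, was higher at Day 15 than at Day 12 in both tissues (1.92-fold and 1.77-fold).

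All 5 tested gamma genes were called higher at Day 15 than at Day 12 in both tissues, where 27.2% of all genes were in +Fgf and 32.5% in +Wnt. Cacng2 among them passed the filter only through Day 15 libraries, so its calls are no separate support for a rise. In +Fgf, the calls of Cacng4 and Cacng8 were lost with the integrity number as a covariate (adjusted p = 0.078 and 0.26), that of Cacng8 also with quantile scaling, and that of Cacng7 without Day 15 +Fgf replicate 3 (log2 change 0.20, limma adjusted p = 0.055). Cacng5, an AMPA receptor auxiliary subunit, rose in +Fgf from 1.14, 0.510 and 0.383 CPM to 8.26, 7.90 and 5.79 CPM (10.8-fold, log2 change 3.02 ± 0.27 SE, adjusted p = 8.6e-08). In +Wnt it rose from 2.14, 2.44 and 3.24 CPM to 13.8, 13.3 and 9.75 CPM (4.72-fold, 2.12 ± 0.27, adjusted p = 2.8e-06). Cacng2, which encodes the AMPA receptor subunit stargazin, had 0 or 1 read per Day 10 library and was 4.16, 4.77 and 2.88 CPM in +Wnt at Day 15, 5.01-fold its Day 12 +Wnt level (log2 change 1.97 ± 0.26). Cacng8 rose 4.15-fold in +Wnt (1.78 ± 0.23, adjusted p = 3.2e-06) and averaged 4.48 and 4.50 CPM in +Fgf and +Wnt at Day 15. Cacng4 and Cacng7 were the highest gamma genes per kb, with 33.7% and 63.5% of the class sum at Day 10 and 43.7% and 35.4% in Day 15 +Wnt. Cacng1, the skeletal muscle subunit, its relative Cacng6, and Cacng3 had at most 6, 6 and 10 reads per library and were not tested.

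**Figure D4:**
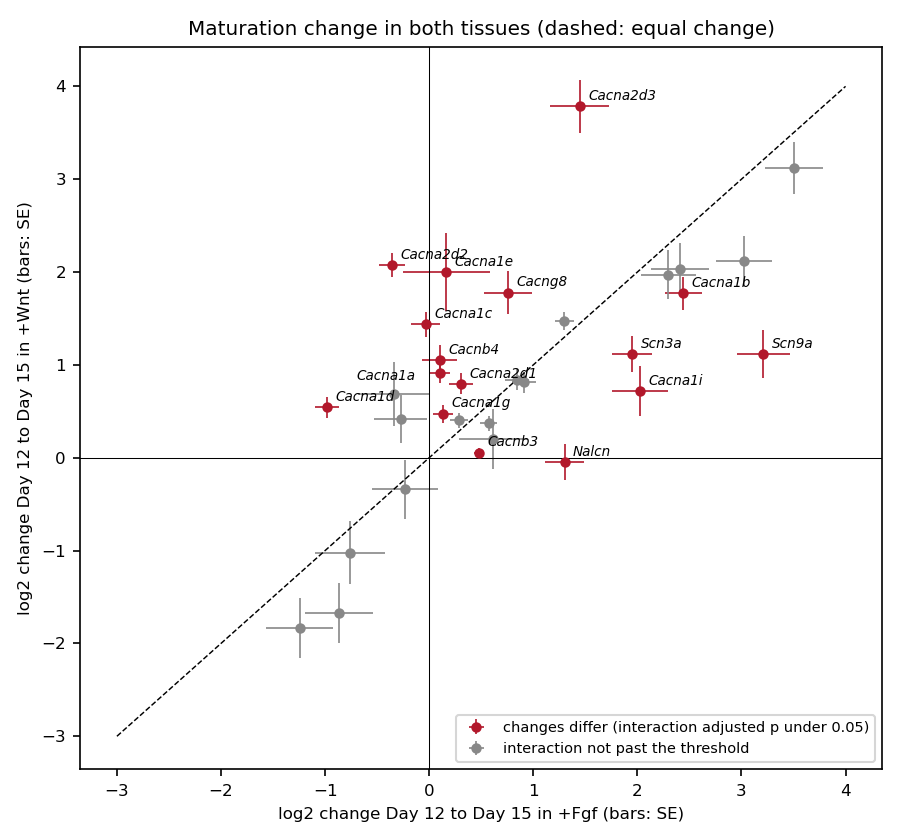
Log2 change from Day 12 to Day 15 in +Fgf (horizontal) and in +Wnt tissue (vertical) for 32 of the 34 tested genes, with SE from limma. The 16 red, named genes changed differently in the tissues (interaction, adjusted p under 0.05), with Cacna2d3 and Cacna2d2 above the dashed line of equal change and Scn9a, Cacna1i and Nalcn below it.

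The changes over these days differed between +Fgf and +Wnt tissue for 18 of 34 genes, against 47.9% of all genes. In 7 of them the change was higher in +Fgf and in 11 it was higher in +Wnt, against 27% and 20.9% of all genes. The difference was at least 1 on the log2 scale for 4 genes with the higher change in +Fgf and 7 in +Wnt, against 4.31% and 9.92% of all genes. Cacna1d was called in opposite directions, lower in +Fgf by 0.98 ± 0.12 and higher in +Wnt by 0.54 ± 0.12 on the log2 scale (adjusted p = 2.4e-06 and 0.00062, the latter lost with quantile scaling). Cacna2d2 was also called in opposite directions by limma (-0.36 ± 0.13 in +Fgf, adjusted p = 0.024, and 2.07 in +Wnt). Its fall in +Fgf did not pass the threshold with the integrity number as a covariate (limma adjusted p = 0.19) or with the quasi-likelihood test of edgeR. Neither did it pass without Day 12 +Fgf replicate 1, Day 12 +Fgf replicate 2 or Day 15 +Fgf replicate 2 (log2 changes -0.35, -0.34 and -0.24, limma adjusted p = 0.060, 0.059 and 0.13).

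**Figure D5:**
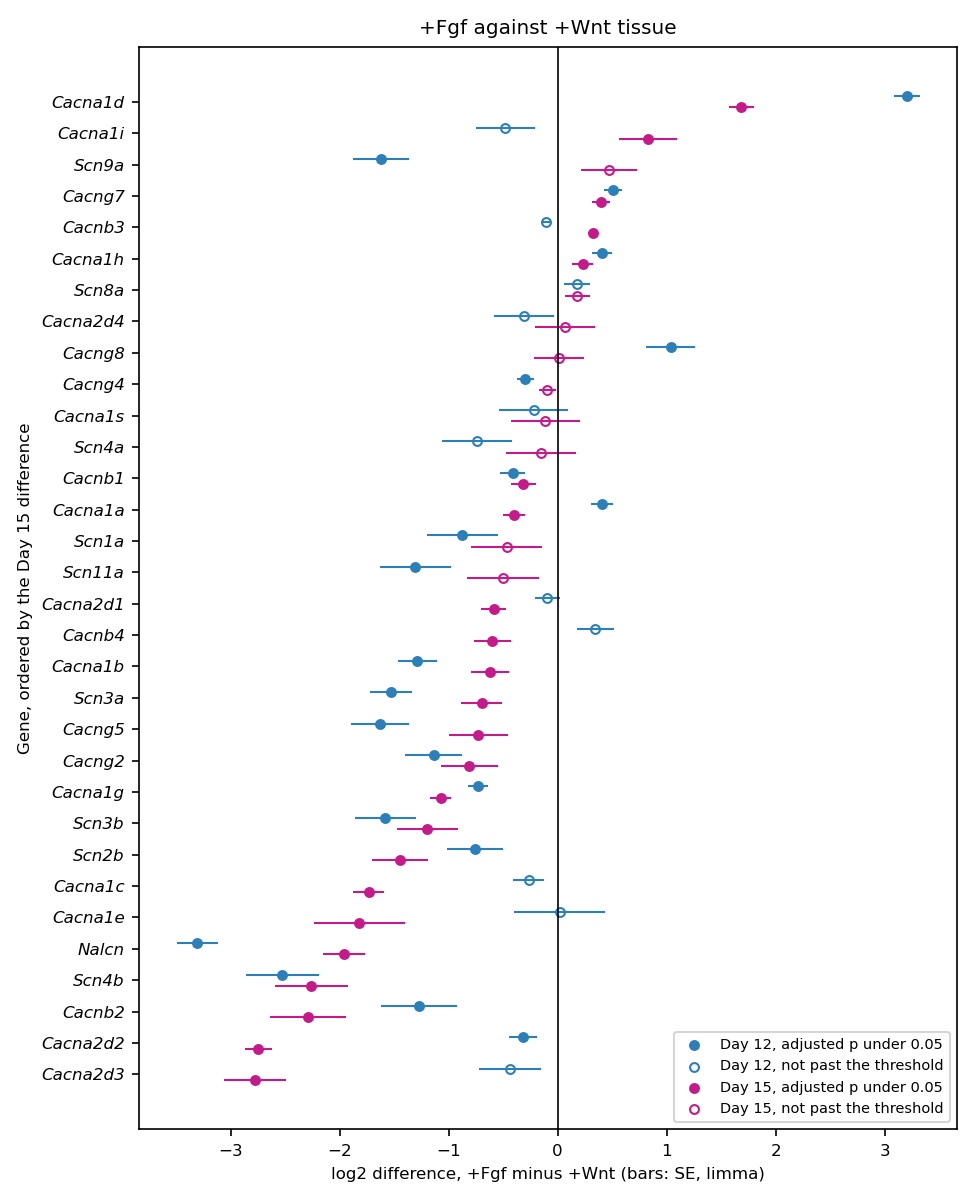
Log2 difference of +Fgf minus +Wnt at Day 12 (blue) and Day 15 (magenta) with SE from limma, filled where adjusted p is under 0.05, for 32 of the 34 tested genes ordered by the Day 15 value. Most filled points lie left of 0 (higher in +Wnt, 16 and 18 of the genes drawn), and Cacna1d at 3.21 and 1.69 lies farthest right.

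Neighbouring genes of these families differed widely in level. On chr2, Scn3a, Scn1a, Scn9a and Scn7a lie on the minus strand between 65457118 and 66784914, and averaged 28.6, 2.79, 7.75 and 0.265 CPM in +Wnt at Day 15. On chr11, Cacng1, Cacng4 and Cacng5 averaged 0.161, 55.8 and 12.3 CPM in the same group. These values are not per length.

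Proteins that bind or resemble these channels were examined as a list of 35 genes, of which 29 were tested (Fam155b was not found). From Day 12 to Day 15, 17 were higher and 6 lower in +Fgf, and 18 higher and 3 lower in +Wnt, against 27.2% and 29.9% of all genes in +Fgf and 32.5% and 35.5% in +Wnt. Between the tissues, 11 were higher in +Wnt and 7 in +Fgf at Day 12 (25.2% and 26.3% of all genes), and 12 and 7 at Day 15 (30.6% and 38%). Their median log2 difference of +Fgf minus +Wnt was -0.05 at Day 12 and -0.19 at Day 15. Ank2, a membrane anchor of ion channels, was 299 ± 24.9 CPM in +Fgf at Day 15 against 51.7 ± 3.91 CPM in +Wnt at Day 15 (SD, n = 3, log2 difference 2.52 ± 0.10 SE, adjusted p = 1.6e-12). Of the intracellular Fgf homologous factors, which bind the tail of sodium channels, Fgf12 was 53.5 ± 4.05 CPM in +Wnt at Day 15 against 8.05 ± 0.535 CPM in +Fgf at Day 15 (log2 difference -2.69 ± 0.12, adjusted p = 8.1e-12) and Fgf13 was 29.9 ± 3.85 against 62.8 ± 4.24 CPM (1.07 ± 0.09, adjusted p = 8.9e-09). Nfasc, which gathers sodium channels at the axon initial segment, rose in both tissues (log2 changes 2.08 ± 0.17 in +Fgf and 1.65 ± 0.17 in +Wnt, adjusted p = 3.2e-08 and 2.5e-07). Of the Stac adaptors of L-type channels, Stac was 17.1 ± 3.09 CPM in +Wnt at Day 15 and 6.45 ± 1.39 CPM in +Fgf at Day 15, while Stac2 was 2.79 ± 0.121 and 12.2 ± 0.891 CPM (log2 differences -1.37 ± 0.29 and 2.01 ± 0.17, adjusted p = 0.00053 and 1.6e-08). Cachd1, a relative of the alpha2delta genes, was 165 ± 17.3 CPM in +Wnt at Day 15 and 39.9 ± 7.10 CPM in +Fgf at Day 15 (log2 difference -2.05 ± 0.15, adjusted p = 2.4e-09).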

How the data were processed

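The authors mapped paired reads of stranded mRNA libraries to the mouse assembly mm10 with Tophat, estimated fragments per gene of the UCSC transcriptome with Cuffdiff and normalized them with edgeR 3.2.4, by the study's methods and the submitters' processing notes. The deposited values, called CPM there, are treated as a normalized signal because columns summed to between 936418 and 1075448. All non-zero values (100%, tolerance 0.01 reads) were whole multiples of 1 read, which gave the reads. Fragments shared by genes were divided by Cuffdiff, and the strand setting is not given in the sources used here.

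Genes with at least 1 CPM in 3 libraries (13845 of 23244) were tested with limma 3.58.1 (R 4.3.3) on log2(value + 0.3), with 5 group means, trend and Benjamini-Hochberg adjustment over all tested genes at 0.05. Full statistics are given for called genes with a log2 change of at least 1 and at least 3 CPM in the higher group, and for other genes only where a comparison turns on them. The channel genes, the partner list and the marker lists were chosen with earlier results of these data known. Positions and overlaps came from GENCODE (GRCm38) and promoter windows from RefSeq (GRCm38.p6), with 40 windows for 30 of the 40 genes. Alternatives were the pseudocount (0.05 and 1), the filter (none, 10 CPM), quantile and median-of-ratios scaling, the RNA integrity number, the replicate number as a block, the quasi-likelihood test of edgeR 4.0.16 on these reads, and each library left out. The precision is set by 3 libraries per group and by depth (12556998 to 16175450 reads per library). Some genes enter the counts and are not reported here by name.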

Additional observations from a re-analysis of the deposited data

Results flagged for a closer look

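The change from Day 12 to Day 15 differed between +Fgf and +Wnt tissue for 18 of 34 channel genes, against 47.9% of all tested genes, by a test of the difference itself (limma interaction, adjusted p under 0.05), of which 16 are given here. The values are the log2 change in +Fgf minus that in +Wnt. Among the sodium channel genes and Nalcn, the change was higher in +Fgf for Scn9a (2.09), Nalcn (1.35) and Scn3a (0.83). Among the calcium channel pores it was higher in +Fgf for Cacna1i (1.31) and Cacna1b (0.67), and lower for Cacna1e (-1.84), Cacna1d (-1.52), Cacna1c (-1.47), Cacna1a (-0.81) and Cacna1g (-0.34). Among the auxiliary subunits it was higher for Cacnb3 (0.42), and lower for Cacna2d2 (-2.43), Cacna2d3 (-2.34), Cacng8 (-1.02), Cacnb4 (-0.95) and Cacna2d1 (-0.49). With the RNA integrity number as a covariate, the adjusted p of Cacna1e, Cacnb4, Scn3a, Cacna2d1, Cacng8, Cacna1b and Cacna1g was above 0.05 (0.68, 0.26, 0.15, 0.20, 0.18, 0.24 and 0.11). The call of Scn3a was also lost without Day 12 +Wnt replicate 3 (0.66, adjusted p = 0.054) or Day 15 +Wnt replicate 3 (0.70, adjusted p = 0.053), and that of Cacna2d1 without Day 12 +Fgf replicate 3, Day 12 +Wnt replicate 1 or Day 15 +Wnt replicate 2 (-0.43, -0.37 and -0.38, adjusted p = 0.052, 0.056 and 0.059). Cacna1b and Cacna1g lost theirs without any 1 of several libraries (adjusted p 0.051 to 0.11 and 0.051 to 0.12).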

How the results depend on the processing

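Of 160 called changes of channel genes, 111 kept their direction and call under every alternative in which the gene was tested, and 49 lost the call under at least 1. Changes of genes that did not pass the filter of an alternative, above all that of 10 CPM, were not judged by it. The integrity number as a covariate lost most (37). With it, 15 channel genes were called from Day 12 to Day 15 in +Fgf and 12 between the tissues at Day 15, and over all genes 3591 in place of 7899 from Day 12 to Day 15 in +Fgf and 3842 in place of 6636 for the interaction. It also turned the change of Scn11a from Day 12 to Day 15 in +Fgf from -0.87 to 0.32 (adjusted p = 0.73). The integrity number is lowest in Day 15 +Fgf, and the cause of these losses was not tested. With the filter of 10 CPM, 19 channel genes were tested, and 6, 18, 17 and 14 were called for Day 12 +Fgf against Day 10, Day 12 +Wnt against Day 10, Day 15 against Day 12 +Wnt and Day 12 +Fgf against +Wnt, with 19 in the F test, because fewer genes were tested. Leaving out each library gave 13 to 18, 22 to 29, 20 to 24, 25 to 29, 20 to 23 and 22 to 26 called channel genes for the comparisons in the order of Day 12 +Fgf and Day 12 +Wnt against Day 10, Day 15 against Day 12 in +Fgf and +Wnt, and +Fgf against +Wnt at Day 12 and Day 15, 15 to 19 for the interaction and 33 to 34 for the F test. The replicate numbers did not pair the samples (median correlation of deviations -0.0080 over 30 pairs with the same number, 7 over 0.1). With the number as a replicate block, 16, 28, 23, 28, 22 and 25 channel genes were called in the same order and 18 for the interaction. Values of genes with few reads, such as Cacng2 and Scn4b, are limited by depth.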
